A study of Mus musculus with 56 samples.

Results

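The genes for 9 Toll-like receptors, Tlr1 to Tlr9, and for Myd88, the adaptor of all of them but Tlr3, were followed in visceral adipose tissue (VAT) of mice fed at opposite times of day. The 10 genes were chosen by name, as the rows of the expression table whose Ensembl identifier carries 1 of these symbols, and the rule that picks them uses no measured value. All 10 were found among the 25939 genes of the table.

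Toll-like receptors are membrane proteins of the innate immune system that recognise conserved molecules of microbes and of damaged cells. Those on the cell surface bind bacterial lipids and proteins, whereas those in endosomes bind nucleic acids and reach the endosome with the help of a chaperone, Unc93b1. Ligand binding recruits adaptors such as Myd88 to the cytoplasmic part of the receptor, which leads to activation of NF-kappaB and interferon regulatory factors. In adipose tissue the receptors are known from macrophages and other immune cells and, for several of them, from adipocytes and their progenitors.

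Female C57BL/6J mice, 9 weeks old at collection, had been fed chow freely for a week in a 12-h light and 12-h dark cycle and were then given food in the day (daytime-restricted feeding, DRF) or in the night (nighttime-restricted feeding, NRF, the control) for 7 days. VAT was taken at 7 time points, ZT0, ZT4, ZT8, ZT12, ZT16, ZT20 and ZT24 (zeitgeber time, hours from lights on), from 4 mice per regimen and time point. This gave 56 libraries of polyA RNA in 14 groups, and no mouse carried a transgene or a mutation named in the labels. The comparisons ask whether the receptors are rhythmic in VAT, whether their timing follows the clock or the food, and whether their level depends on the time of feeding.

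Each NRF library held 34406075 to 40966835 reads on genes, as recovered from the deposited values, and each DRF library 31144102 to 41246347. Levels are given as CPM, reads scaled to a library size of 1000000, and differences as DRF minus NRF on the log2(CPM + 1) scale, on which changes of weakly expressed genes come out too small. P-values reflect the spread between these mice. The adipocyte genes Adipoq, Plin1 and Fabp4 were abundant, with means of 2994, 1647 and 11317 CPM under NRF, as the tissue label says. In a principal component analysis 2 libraries stood apart, DRF ZT8 replicate 1 and DRF ZT0 replicate 4, at 10.7 and 9.56 median absolute deviations on the second component against at most 2.45 for any other library. Their summed epithelial markers were 417 and 825 CPM, against 8.92 to 58.8 CPM in the other DRF libraries, and their summed adipocyte markers were 8747 and 13609 CPM, against 15952 to 31095 CPM. Results are therefore given with all libraries and, where a call described here changes, without these 2.

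DRF ZT0 replicate 4 touches the receptors directly. It had the highest level of all 28 DRF libraries for 6 of the 10 genes, which were Tlr1, Tlr2, Tlr3, Tlr4, Tlr5 and Myd88. For Tlr2 it held 19.8 CPM, while the other 3 DRF mice of ZT0 held 5.59 to 6.33 CPM. DRF ZT8 replicate 1 had the lowest level of all DRF libraries for Tlr5, 4.01 CPM, and for Tlr8, 4.57 CPM. In bulk RNA, fewer cells of a type and less RNA per cell cannot be told apart, and this holds for all results that follow.

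The 10 genes lie on 7 chromosomes, in coordinates of GRCm38, and all are protein coding. The surface receptor genes are Tlr1 (chr5:64924679-64933563, minus strand), Tlr2 (chr3:83836272-83841767, minus), Tlr4 (chr4:66827584-66930284, plus), Tlr5 (chr1:182954788-182976044, plus) and Tlr6 (chr5:64952031-64960097, minus). The endosomal receptor genes are Tlr3 (chr8:45395665-45411080, minus), Tlr7 (chrX:167304929-167330558, minus), Tlr8 (chrX:167242696-167264329, minus) and Tlr9 (chr9:106222598-106226883, plus). The adaptor gene Myd88 lies at chr9:119335934-119341411 on the minus strand. Tlr1 and Tlr6 are 18467 bases apart and encode near relatives, so that reads from shared stretches could be placed on either gene or dropped. Myd88 overlaps Acaa1a, a peroxisomal thiolase gene on the opposite strand, over 1736 bases, and its whole span lies inside the annotated span of Slc22a14 on its own strand. The library kit is not described as marking strand, so reads from these overlaps cannot be assigned to Myd88 with certainty. Acaa1a was far more abundant, at 162 CPM, and its mean level differed between the regimens by 0.02 ± 0.043 (SE), adjusted p = 0.827 in limma, while Slc22a14 was at 1.86 CPM and was higher under DRF by 0.16 ± 0.058, adjusted p = 0.0468.

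Promoter sequences of RefSeq in build GRCm38.p6, 250 bases before to 50 after an annotated start, were found for 8 of the 10 genes in 10 windows. Those of Tlr4 and Tlr7 were not used here. The windows were searched on both strands for CACGTG, the E-box of the clock factors, TTATGTAA, a D-box of PAR bZIP factors, 1 form of the NF-kappaB element, and GAGGAAGT, a purine-rich element of the myeloid factor PU.1. The search letters do not overlap each other. GAGGAAGT was in 2 windows, those of Tlr1 and Tlr9, and in 3.20% of all 32851 promoters of this length. CACGTG was in 1 window, at a second start inside the Tlr1 gene (chr5:64932650-64932949, minus strand), and in 7.15% of all promoters. TTATGTAA and the NF-kappaB element were in no receptor window and in 0.938% and 0.155% of all promoters. The windows of Tlr1 and Tlr9 are shown because they share the PU.1-type letters, 5′ to 3′ on the strand of the gene, with GAGGAAGT or its reverse complement ACTTCCTC in capitals. In Tlr1 the 250 bases before the start at chr5:64933559-64933808 on the minus strand are given, with the match beginning 23 bases before the start. In Tlr9 the window chr9:106222348-106222627 on the plus strand is given, which ends 30 bases after the start and holds the match on the other strand from base 11 after the start.
Tlr1 promoter: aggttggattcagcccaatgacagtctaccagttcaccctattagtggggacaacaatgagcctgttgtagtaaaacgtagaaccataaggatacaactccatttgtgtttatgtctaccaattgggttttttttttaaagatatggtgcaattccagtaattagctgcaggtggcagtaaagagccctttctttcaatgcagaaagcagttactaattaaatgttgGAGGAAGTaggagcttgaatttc
Tlr9 promoter: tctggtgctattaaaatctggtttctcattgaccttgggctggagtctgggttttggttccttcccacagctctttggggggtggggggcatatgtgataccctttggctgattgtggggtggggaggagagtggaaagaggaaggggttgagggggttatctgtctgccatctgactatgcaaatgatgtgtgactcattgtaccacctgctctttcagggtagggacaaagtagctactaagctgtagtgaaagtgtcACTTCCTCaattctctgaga
These matches are a description of the letters only, and binding at them was not measured.

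Myd88 was the most abundant of the 10 genes per length and Tlr6 the least. Levels of different genes are compared here in TPM, recomputed from reads and exon length, as mean ± SD over the 28 libraries of a regimen. Under NRF the order was Myd88 with 29.0 ± 3.72, Tlr4 with 17.5 ± 2.49, Tlr2 with 9.18 ± 2.08 and Tlr3 with 9.17 ± 1.09 TPM. Tlr7 with 7.47 ± 1.26, Tlr8 with 6.53 ± 1.30 and Tlr5 with 4.69 ± 1.07 TPM followed, and the lowest were Tlr9 with 2.50 ± 0.590, Tlr1 with 2.38 ± 0.742 and Tlr6 with 2.10 ± 0.463 TPM. Myd88 exceeded 81.7% of all genes in its mean TPM over the 56 libraries, Tlr4 exceeded 74.8%, and Tlr6 exceeded 46.5%. Tlr4 is the receptor for lipopolysaccharide, Tlr2 pairs with Tlr1 or Tlr6 to bind bacterial lipopeptides, and Tlr5 binds flagellin.

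The ranges of all neighbours in this order overlapped. Within libraries, Myd88 was above Tlr4 and Tlr4 above the next gene in 28 of 28 libraries of each regimen. Tlr2 was above Tlr3 in 15 of 28 NRF libraries, so these 2 genes did not differ beyond their spread under NRF, and the same holds for Tlr9 over Tlr1, also in 15 of 28, and for Tlr1 over Tlr6, in 17 of 28. Under DRF, Tlr3 with 9.18 ± 1.78 TPM stood above Tlr2 with 7.29 ± 3.44 TPM in 26 of 28 libraries. Tlr1 with 2.13 ± 1.18 TPM and Tlr9 with 2.08 ± 0.838 TPM did not differ in order under DRF, with Tlr1 higher in 14 of 28 libraries. Myd88 was at 25.4 ± 3.93, Tlr4 at 16.5 ± 3.32, Tlr7 at 5.86 ± 1.17, Tlr8 at 5.46 ± 0.689, Tlr5 at 4.31 ± 1.05 and Tlr6 at 1.63 ± 0.447 TPM under DRF. In reads, the lowest count behind any of these values was 38 for Tlr6 and 39 for Tlr1, both under DRF, and the lowest for Tlr4 was 690. The counting error of Tlr1, Tlr6 and Tlr9 is thus larger relative to their level than that of Tlr4 and Myd88.

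**Figure D1:**
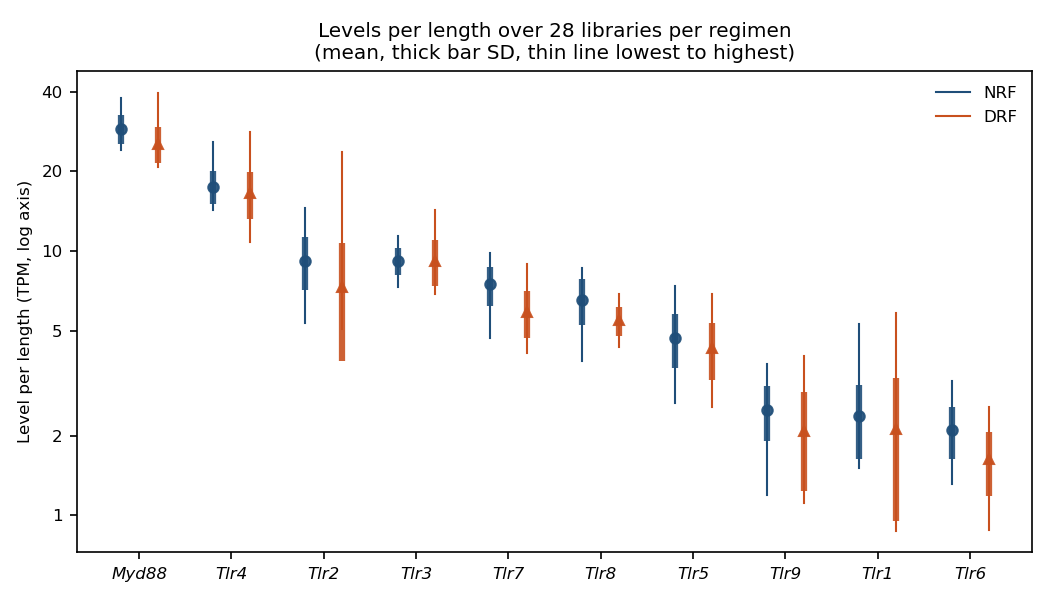
Level per length of each gene in TPM on a log axis, for the 28 NRF and the 28 DRF libraries, with the mean (marker), SD (thick bar) and the lowest and highest library (thin line). Myd88 and Tlr4 stand above the rest in both regimens, and Tlr9, Tlr1 and Tlr6 lie together at the bottom.

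Averaged over the day, 6 of the 10 genes were lower under DRF than under NRF in limma at an adjusted p under 0.05, and none was higher. The 6 were Tlr2 and Tlr6 of the surface receptors, Tlr7, Tlr8 and Tlr9 of the endosomal receptors, and Myd88. Over all 25938 genes fitted, 21.7% were called in either direction, 10.3% as lower under DRF, and among the 14303 genes with a mean of at least 1 CPM, as all 10 have, 15.7% were called lower. The median difference was -0.19 over the 10 genes and 0.00 over all genes. The differences were small, none beyond a fold of 0.787 on the log2(CPM + 1) scale. Being below the threshold in one gene and above it in another does not show that the genes differ from each other, which was not tested.

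Tlr2 showed the largest fitted difference among the surface receptors. Under NRF its level was 5.42 CPM at the lowest, 8.48 at the median and 12.9 at the highest, and under DRF it was 4.96, 6.31 and 19.8 CPM. The ranges overlap, and the DRF maximum is DRF ZT0 replicate 4, since no other DRF library exceeded 9.16 CPM. The fitted difference was -0.35 ± 0.083 (SE), adjusted p = 0.00144, and -0.39 with adjusted p = 5.8e-06 without the 2 libraries that stood apart. The fitted group difference was below 0 at 6 of 7 time points, all but ZT0, and 10.8% of all genes were lower under DRF at 6 or more time points, or 13.2% of those with a mean of at least 1 CPM. Without the 2 libraries that stood apart, the Tlr2 difference at ZT0 turned from 0.26 to -0.12, adjusted p = 0.745 in limma. It was then below 0 at all 7 time points.

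Tlr6, the partner of Tlr2 for diacylated lipopeptides, was low throughout and lower under DRF. Its level ran from 1.62 over 2.38 to 3.33 CPM under NRF and from 1.16 over 1.83 to 2.90 CPM under DRF, giving the lowest, the median and the highest library. The difference was -0.26 ± 0.058 (SE), adjusted p = 7.4e-04, with a lower DRF mean at 6 of 7 time points. Tlr1, the partner for triacylated lipopeptides, ran from 1.60 over 2.38 to 5.22 CPM under NRF and from 0.925 over 1.89 to 5.43 CPM under DRF. Its difference, -0.16 ± 0.084, did not pass, with adjusted p = 0.184. Without DRF ZT0 replicate 4 alone, its value was -0.20 with adjusted p = 0.0405, so that 1 library decides this call.

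Tlr4 and Tlr5 did not pass the test of the mean level. Tlr4 ran from 23.7 over 29.8 to 41.2 CPM under NRF and from 21.0 over 29.4 to 43.5 CPM under DRF, with medians nearly equal, and the difference was -0.07 ± 0.049 (SE), adjusted p = 0.328. Tlr5 ran from 3.98 over 6.92 to 11.3 CPM under NRF and from 4.01 over 6.50 to 9.15 CPM under DRF, with a difference of -0.09 ± 0.067, adjusted p = 0.405. Neither passed without the 2 libraries that stood apart, where adjusted p was 0.182 for Tlr4 and 0.368 for Tlr5.

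Among the endosomal receptors, the single-stranded RNA receptors Tlr7 and Tlr8 and the CpG DNA receptor Tlr9 were lower under DRF. With all libraries, Tlr7 had the smallest adjusted p of the 10 genes. Without the 2 that stood apart Tlr2 had the smallest, 5.8e-06 in limma against 1.2e-05 for Tlr7. Tlr7 ran from 5.97 over 9.48 to 11.8 CPM under NRF and from 5.91 over 7.19 to 10.4 CPM under DRF, and the difference was -0.33 ± 0.058 (SE), adjusted p = 2.1e-05. The ranges overlapped widely, and the lowest libraries of both regimens were alike. Tlr8 ran from 4.30 over 7.47 to 9.58 CPM under NRF and from 4.57 over 6.39 to 7.72 CPM under DRF, with a difference of -0.21 ± 0.059, adjusted p = 0.00678, which was 0.104 without replicate number 3. Tlr9 ran from 1.30 over 2.70 to 3.78 CPM under NRF and from 1.25 over 2.03 to 4.26 CPM under DRF, with a difference of -0.22 ± 0.077, adjusted p = 0.0291. This call was lost in 4 of 16 alternatives, without replicate number 2, 3 or 4 in all groups and without the ZT24 libraries, with adjusted p up to 0.219.

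Tlr3, the receptor for double-stranded RNA, which signals through Ticam1 and not through Myd88, was the only one of the 10 genes with a fitted difference above 0 with all libraries. It ran from 12.3 over 15.2 to 17.9 CPM under NRF and from 12.2 over 14.9 to 20.7 CPM under DRF. The difference was 0.01 ± 0.039 (SE), adjusted p = 0.894, and -0.01 without the 2 libraries that stood apart. Myd88 ran from 18.6 over 23.1 to 29.7 CPM under NRF and from 17.0 over 20.6 to 28.3 CPM under DRF, and its difference was -0.17 ± 0.040, adjusted p = 0.00104, which was 0.0501 without replicate number 1. With all libraries, Myd88 was the only one of the 10 genes with a lower DRF group mean in CPM at 7 of 7 time points. Without the 2 that stood apart, the fitted differences of Tlr2 were below 0 at all 7 as well. The overlap with Acaa1a and Slc22a14 given above limits the values of Myd88.

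**Figure D2:**
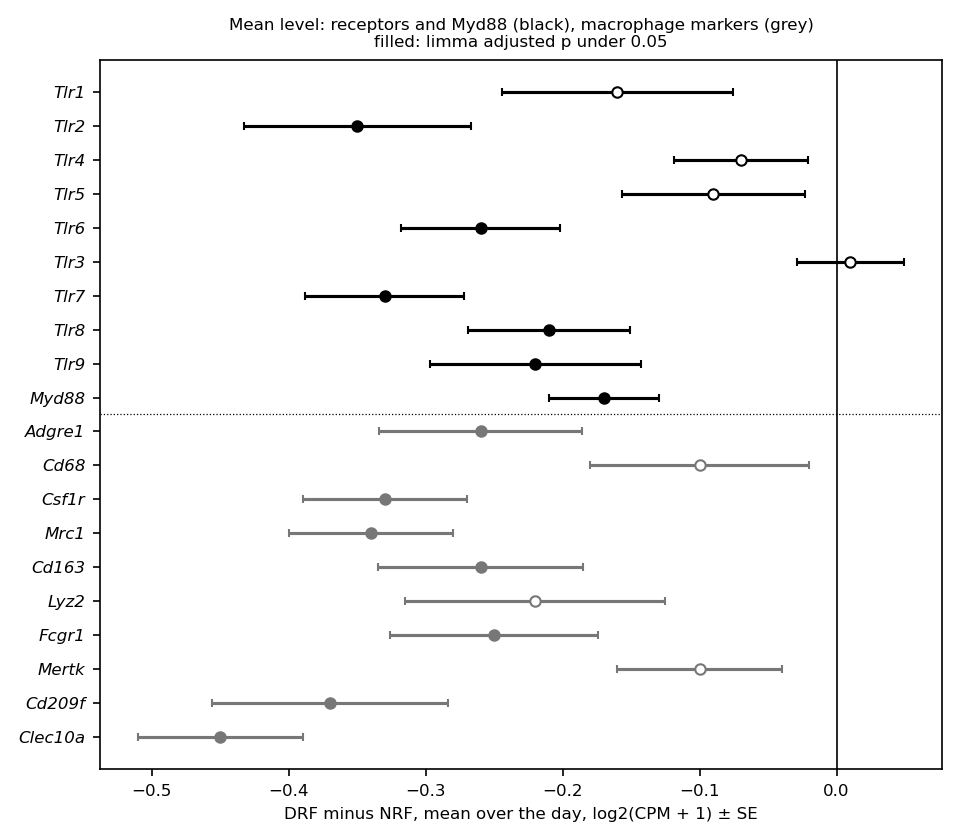
Difference in mean level over the day, DRF minus NRF on log2(CPM + 1) with SE, for the 10 genes (black) and the 10 macrophage markers (grey), 28 libraries per regimen. Filled points passed an adjusted p of 0.05 in limma, and 6 of the 10 receptor and adaptor genes and 7 of the 10 macrophage markers lie filled to the left of 0. Over all genes 10.3% were called lower under DRF.

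Markers of macrophages, in which these receptors are known, were mostly lower under DRF as well. So were those of adipose progenitors and of mesothelium, with 3 of 5 lower and none higher in each list and medians of -0.25 and -0.26. Of 10 macrophage markers, 7 were lower under DRF and none higher, with a median of -0.26. Over all genes 10.3% were called lower and 11.4% higher, and 15.7% lower among those with a mean of at least 1 CPM. Clec10a was lower by a difference of -0.45 ± 0.060 (SE), Mrc1 by -0.34 ± 0.060, Csf1r by -0.33 ± 0.060, Cd209f by -0.37 ± 0.086, Adgre1 by -0.26 ± 0.074 and Cd163 by -0.26 ± 0.075. The summed level of the macrophage list ran from 845 to 2037 CPM under NRF and from 679 to 1344 CPM under DRF, and no marker was at 0 in any library. The lowest DRF sum was that of DRF ZT8 replicate 1, and the DRF libraries that did not stand apart began at 776 CPM. A count of 7 of 10 was also found without the 2 libraries that stood apart, against 14.3% of all genes lower. Of 4 plasmacytoid dendritic cell markers 1 was lower, Siglech, at -0.58 ± 0.094, with sums of 148 to 209 CPM under NRF and 130 to 235 CPM under DRF, the highest being DRF ZT8 replicate 1 and the others reaching 193 CPM at most. Bst2 passed as well without the 2 libraries, at -0.22 with adjusted p = 4.7e-04. Of 4 monocyte markers Ccr2 and Ly6c2 were lower and Chil3 was higher, with sums of 37.6 to 80.0 CPM under NRF and 29.3 to 416 CPM under DRF, the highest being DRF ZT0 replicate 4. Plac8, the fourth of them, had a difference of -0.39 with adjusted p = 0.216, and of -0.63 with adjusted p = 1.5e-06 without the 2 libraries. B cell markers summed to 5.52 to 29.5 CPM under NRF and 4.67 to 22.1 CPM under DRF, and 0 of 7 were called, with no adjusted p under 0.343. The part of these cells in the receptor differences was not tested.

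The other marker lists were read in the same fit, against the same 10.3% of all genes lower and 11.4% higher. Under DRF, 2 of 6 T cell markers (Cd3g and Cd4) and 1 of 5 dendritic cell markers (Cd209a) were lower, as were 3 of 5 progenitor markers (Pdgfra, Dpp4 and Dcn) and 3 of 5 mesothelial markers (Upk3b, Lrrn4 and Wt1). Adipoq was lower and Lep higher among 6 adipocyte markers. Among 5 neutrophil markers S100a8 was higher. All 4 haemoglobin genes used as blood markers were higher, by differences of 0.44 to 0.66, with sums of 168 to 716 CPM under NRF and 199 to 827 CPM under DRF. None of 4 endothelial, 5 epithelial and 4 skeletal muscle markers passed with all libraries. With the 2 libraries that stood apart left out, Lck (-0.20, adjusted p = 0.00483), Csf3r (-0.19, 0.0106), Krt19 (-0.33, 0.0143) and Krt18 (-0.36, 0.0133) were called lower and Cdh5 (0.17, 0.0114) higher, while Upk3b no longer passed (-0.24, 0.0616).

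Genes that work with the receptors were read from the same fit as a list of 69 genes in 8 roles, of which 68 were in the table. Of these, 13 were lower and 9 higher under DRF, against the background of 10.3% lower and 11.4% higher over all genes, and the median was -0.03. Among genes with a mean of at least 1 CPM, as most of the list have, 15.7% were called lower. Without the 2 libraries that stood apart, 20 were lower and 12 higher, the added lower genes being Ly96, Tab1, Irf7, Sigirr, Nfkbia, Cyld and Ccl3 and the added higher genes Cd36, Irak1 and Ccl2. Over all genes the shares rose with them, to 14.3% lower and 14.6% higher. Lower genes were found among receptors and ligand handling. Cd14, the co-receptor that hands lipopolysaccharide to Tlr4, was lower by a difference of -0.39 ± 0.10 (SE), adjusted p = 0.00268, and Ly86, the partner of the receptor-like Cd180, by -0.45 ± 0.076, adjusted p = 1.3e-05. Unc93b1, which carries the endosomal receptors to their place, was at 74.0 ± 13.8 CPM (SD) under NRF and 62.6 ± 7.87 CPM under DRF, a difference of -0.25 with adjusted p = 1.1e-04. Lbp, the secreted lipopolysaccharide-binding protein, went the other way, from 76.2 ± 24.9 to 127 ± 34.7 CPM, a difference of 0.79 ± 0.11 with adjusted p = 2.1e-07.

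The remaining roles were divided. With all libraries none of 17 kinases and ligases was lower and 6 were higher, and without the 2 that stood apart 1 was lower, Tab1 at -0.10 with adjusted p = 0.0177, and 7 were higher. Among the higher genes were Ube2n at 0.24 with adjusted p = 4.4e-06 and Traf3 at 0.18 with adjusted p = 4.5e-04. Of 9 trafficking and folding genes, 3 were lower and 2 were higher, the cathepsins Ctsl, at 0.40 with adjusted p = 2.8e-05, and Ctsb. Of 7 transcription factors 2 were lower (Irf5 and Rela), of 9 inhibitors 1 (Irak3), of 4 other adaptors 1 (Sarm1), of 4 other receptors 2 (Cd180 and Tlr11), and of 13 cytokine targets 2 (Ccl5 and Cxcl10). None of these 5 roles had a member called higher with all libraries, and without the 2 that stood apart 4 inhibitors were lower and the cytokine target Ccl2 was higher. Ly96, which forms the Tlr4 complex, was at 4.02 ± 0.896 and 3.61 ± 0.984 CPM (SD), a difference of -0.12 with adjusted p = 0.225, and of -0.15 with adjusted p = 0.0456 without the 2 libraries. Ticam1, the adaptor of Tlr3, had a difference of -0.15 with adjusted p = 0.111. Tnf, Il1b, Il6 and Il12b all had means under 1 CPM in both regimens, and none of them passed.

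At single time points, 7 of the 10 genes were called at 1 or 2 of the 7 hours. Whether the difference itself varied over the day was tested only as a 24-h cosine, through the rhythm comparison given after them. That comparison cannot decide whether a difference was confined to a single hour. At ZT4, in the light, 4 of 10 genes were called lower under DRF, against 9.05% of all genes lower and 19.5% called in either direction, and all 10 fitted differences were below 0. Tlr6 was at 2.43, 1.91, 3.12 and 2.81 CPM in the 4 NRF mice and at 1.30, 1.63, 1.16 and 1.50 CPM in the 4 DRF mice of ZT4. All DRF mice were below all NRF mice, and the difference was -0.57 ± 0.14 (SE), adjusted p = 0.00228. Myd88 was at 23.6, 23.8, 27.8 and 28.9 CPM under NRF and at 20.5, 20.8, 18.8 and 20.7 CPM under DRF. These groups did not overlap either, with a difference of -0.35 ± 0.10, adjusted p = 0.0129. Groups with DRF wholly below NRF were found for 2 of the 10 genes and for 12.2% of all genes at ZT4.

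Tlr1 and Tlr4 were also called at ZT4. Tlr1 was at 1.96, 3.02, 2.38 and 5.22 CPM under NRF and at 1.66, 2.05, 1.37 and 1.41 CPM under DRF. NRF ZT4 replicate 4 was the highest NRF library for Tlr1, the groups overlapped, and the difference was -0.61 ± 0.19 (SE), adjusted p = 0.0170. Tlr4 was at 26.0, 33.8, 38.3 and 34.6 CPM under NRF and at 25.8, 23.3, 21.0 and 26.3 CPM under DRF. The lowest NRF mouse lay within the DRF values, and the difference was -0.44 ± 0.13, adjusted p = 0.0163. Without the 2 libraries that stood apart, Tlr2 and Tlr7 passed at ZT4 as well, at -0.46 with adjusted p = 0.0272 and -0.36 with adjusted p = 0.0397. Leaving out 1 replicate number in all groups at a time, the call of Tlr6 at ZT4 held in 3 of 4 fits, those of Tlr4 and Myd88 in 2 and that of Tlr1 in 1, and without number 3 none of the 10 passed.

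At ZT8 and ZT12 the calls were fewer. At ZT8, Myd88 alone was called, against 16.5% of all genes in either direction and 7.47% lower. It was at 21.9, 27.9, 20.7 and 25.7 CPM under NRF and 18.2, 23.8, 18.2 and 17.0 CPM under DRF. The groups overlapped, the difference was -0.30 ± 0.10 (SE) with adjusted p = 0.0337, and without DRF ZT8 replicate 1 adjusted p was 0.0745. With a replicate number left out in all groups it held in 1 of 4 fits. At ZT12, the change from light to dark, Tlr6 and Tlr7 were called, against 16.1% of all genes in either direction and 7.38% lower. Tlr7 was at 9.80, 9.51, 8.51 and 11.8 CPM under NRF and at 6.47, 6.12, 7.12 and 6.08 CPM under DRF, a difference of -0.55 ± 0.13 with adjusted p = 0.00312. Tlr6 was at 2.76, 2.02, 2.42 and 2.60 CPM under NRF and at 1.45, 1.61, 1.82 and 1.45 CPM under DRF, a difference of -0.41 ± 0.14 with adjusted p = 0.0311. Both genes, and Tlr8, had all DRF mice below all NRF mice at ZT12, as had 9.94% of all genes. For Tlr8 the difference was -0.32 ± 0.15 with adjusted p = 0.136. Without the 2 libraries that stood apart, Tlr2 passed as well at ZT12, at -0.44 with adjusted p = 0.0420. With a replicate number left out, the call of Tlr7 at ZT12 held in 3 of 4 fits and that of Tlr6 in 1, with adjusted p up to 0.0815 and 0.205.

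In the dark, Tlr7 and Tlr9 were called at ZT16, against 9.97% of all genes in either direction and 4.97% lower, and Tlr8 at ZT20, against 13.1% and 6.41%. At ZT16 Tlr7 was at 9.14, 8.94, 11.3 and 9.27 CPM under NRF and at 6.32, 6.43, 7.43 and 6.29 CPM under DRF, a difference of -0.48 ± 0.13 (SE) with adjusted p = 0.0145. Tlr9 was at 2.76, 2.68, 2.83 and 2.45 CPM under NRF and at 1.25, 1.36, 1.51 and 2.03 CPM under DRF, a difference of -0.55 ± 0.18 with adjusted p = 0.0386. Along with these, Tlr1, Tlr2 and Myd88 had DRF mice wholly below NRF mice at ZT16, 5 of the 10 genes against 8.93% of all genes. Tlr2 was at 9.63, 7.55, 10.5 and 7.73 CPM under NRF and at 4.96, 5.94, 5.17 and 6.14 CPM under DRF, a difference of -0.58 ± 0.21 whose adjusted p of 0.0707 fell to 0.0107 without DRF ZT0 replicate 4. Tlr1 likewise had adjusted p = 0.0998 with that library and 0.0367 without it. At ZT20 Tlr8 was at 7.71, 9.28, 8.95 and 8.97 CPM under NRF and at 4.85, 6.65, 5.44 and 7.46 CPM under DRF, a difference of -0.47 ± 0.15 with adjusted p = 0.0241. Tlr2 and Tlr8 had DRF mice wholly below NRF mice at ZT20, as had 10.1% of all genes. Tlr4 lay the other way at this hour, with all DRF mice at 30.6 to 39.0 CPM and all NRF mice at 27.6 to 30.1 CPM, a difference of 0.20 ± 0.13 that did not pass, adjusted p = 0.408. DRF wholly above NRF was found for 9.60% of all genes at ZT20. These calls also turned on single replicate numbers. With 1 left out at a time, that of Tlr7 at ZT16 held in 1 of 4 fits, that of Tlr9 in 0, with adjusted p of 0.0508 to 0.158, and that of Tlr8 at ZT20 in 2.

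**Figure D3:**
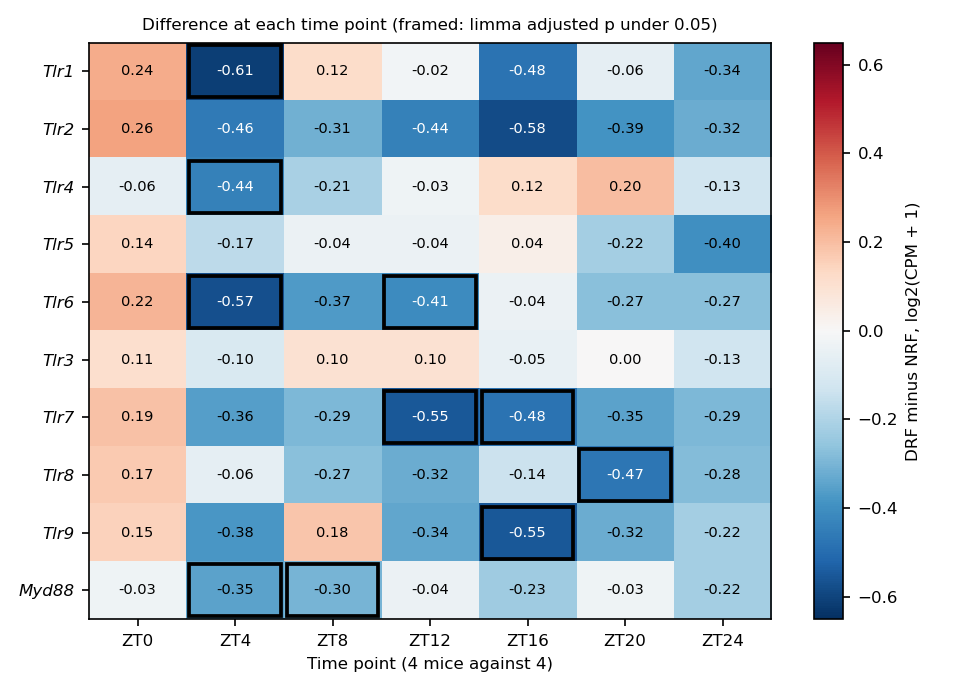
Fitted difference, DRF minus NRF on log2(CPM + 1), of the 10 genes (rows) at the 7 time points (columns), 4 mice against 4, with blue for lower and red for higher under DRF. Frames mark an adjusted p under 0.05 in limma, with 4 at ZT4, 1 at ZT8, 2 at ZT12, 2 at ZT16, 1 at ZT20 and none at ZT0 and ZT24.

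ZT0 and ZT24 are the same hour of the clock and gave different pictures. No gene of the 10 was called at either in limma, against 10.5% and 11.3% of all genes, and at an unadjusted p under 0.05 there were 0 at ZT0 and 3 at ZT24, with voom also calling 0 at both. At ZT0, 8 of the 10 fitted differences were above 0, with a median of 0.16, and at ZT24 all 10 were below 0, with a median of -0.28. Without the 2 libraries that stood apart, 6 of 10 were below 0 at ZT0 and the median was -0.03. Tlr5 was the widest at ZT24, at 8.39, 8.79, 6.73 and 8.57 CPM under NRF and 5.92, 6.51, 6.07 and 5.10 CPM under DRF, with no overlap, as for 7.36% of all genes. The difference was -0.40 ± 0.16 (SE), adjusted p = 0.0958, and adjusted p was 0.0251 without the 2 libraries that stood apart. After these values were seen, the change from ZT0 to ZT24 was compared between the regimens in limma. None of the 10 genes passed, 5 had an unadjusted p under 0.05, and 3 of 25938 genes, 0.0116%, were called. Between ZT0 and ZT24 within a regimen none of the 10 passed either, against 0.0501% of all genes under DRF and 0.154% under NRF, with 1 and 3 of the 10 at an unadjusted p under 0.05. Without DRF ZT0 replicate 4, the comparison between regimens had 3 of the 10 at an unadjusted p under 0.05 and 1 gene called in all, and that within DRF had 0 of the 10 and 6 genes called.

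**Figure D4:**
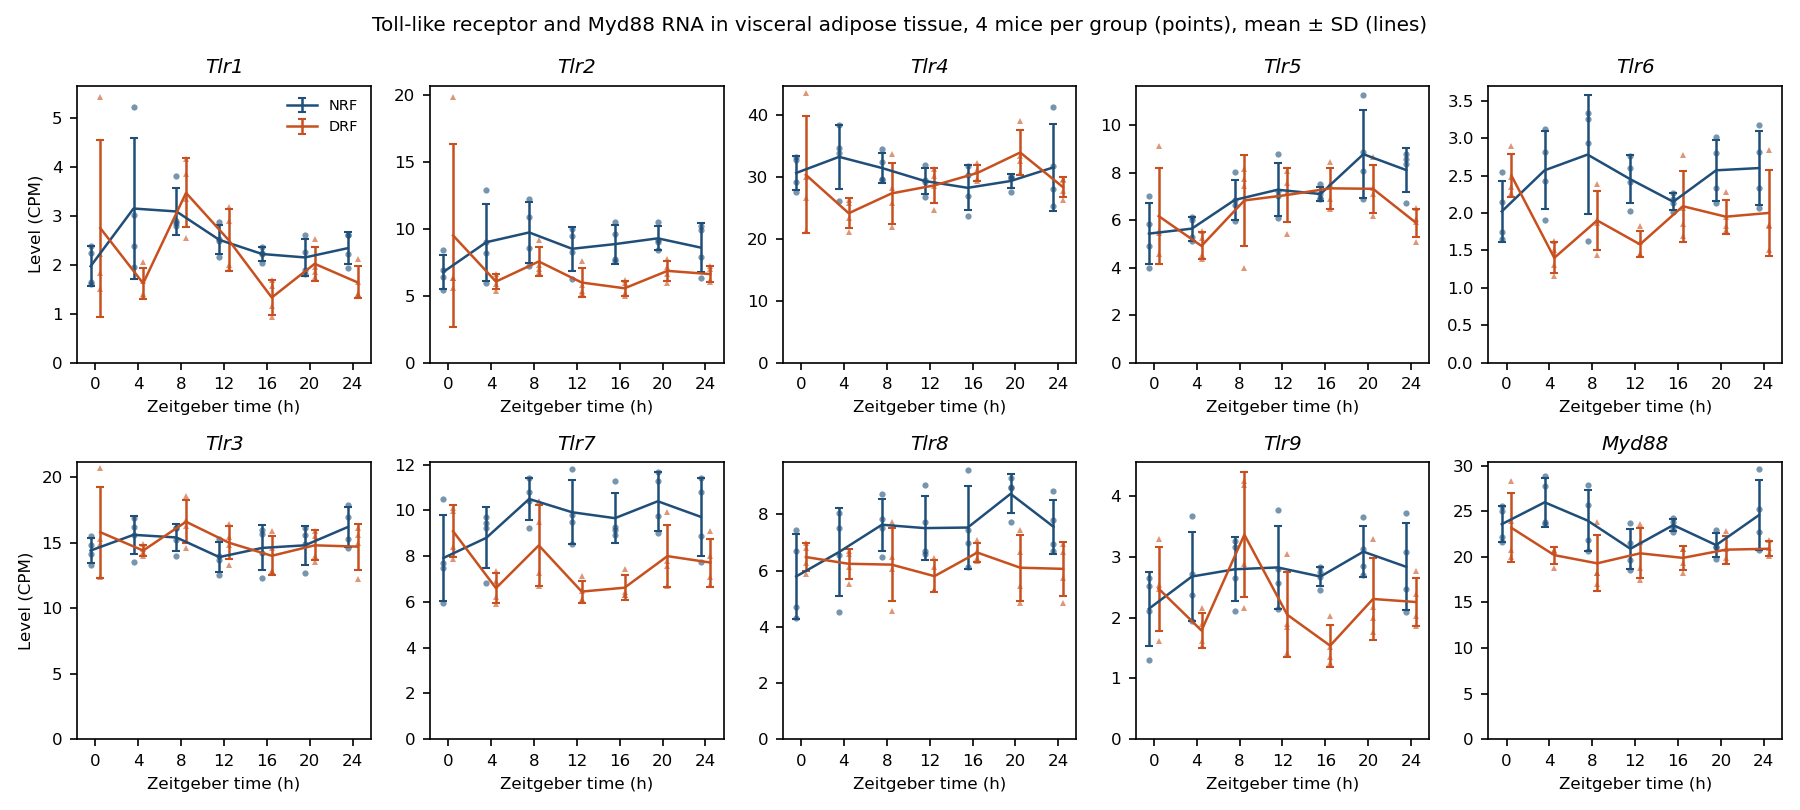
Level of each gene in CPM (linear axis from 0) by zeitgeber time, with 1 point per mouse and the mean ± SD of 4 mice per group for NRF (circles) and DRF (triangles). The DRF ZT0 mouse far above its group for Tlr1 and Tlr2 is replicate 4, and the DRF means of Tlr7 lie below those of NRF at 6 of 7 time points.

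In the joint test of JTK_CYCLE and Lomb-Scargle, none of the 10 genes was called rhythmic with a 24-h period under either regimen, while other tests called up to 2. It gave 0 of 10 under NRF, against 26.7% of all 25939 genes, and 0 of 10 under DRF, against 15.0%. At an unadjusted p under 0.05 there was 1 gene under NRF, Tlr1, whose adjusted p was 0.0987. Under DRF there were 2, Tlr4 with adjusted p = 0.0656 and Tlr5 with adjusted p = 0.149. Of these 3 genes Tlr4 was the closest to the threshold and Tlr5 the farthest from it. JTK_CYCLE alone called Tlr1 under NRF, with adjusted p = 0.0474, and Tlr4 under DRF, with adjusted p = 0.0333. Without the 2 libraries that stood apart, Tlr4 and Tlr5 were called under DRF, with adjusted p = 0.0379 and 0.00843. A cosine fit in limma on log2(CPM + 1) called none of the 10 under NRF and Tlr4 and Tlr5 under DRF, with adjusted p = 0.0164 and 0.0392, against 33.7% and 26.7% of all genes and 51.0% and 40.4% of those with a mean of at least 1 CPM. The other 7 genes were called in neither regimen by any of these tests.

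Timing was compared between regimens by the same cosine fit, first by clock time and then with the DRF curve moved by 12 h, which aligns it by food. By clock time, 1 of the 10 genes differed in rhythm, Tlr4, against 36.0% of all genes and 53.4% of those with a mean of at least 1 CPM. Aligned by food, 2 of the 10 differed, Tlr1 and Tlr5, against 14.9% of all genes and 23.0% of those with a mean of at least 1 CPM. At an unadjusted p under 0.05 there were 2 and 3 genes. The share of the 10 genes was below the background by clock time and near it when aligned by food.

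Tlr4 under NRF was fitted with its peak at 4.38 ± 1.79 h (SE) and an amplitude of 0.10 ± 0.05 on the log2(CPM + 1) scale. Under DRF the peak was at 18.1 ± 0.941 h and the amplitude 0.19 ± 0.05. The peak hours lie 10.3 h apart, and the rhythms differed by clock time with adjusted p = 0.00625 in limma and were not shown to differ when aligned by food, with adjusted p = 0.569. The NRF mean was highest at ZT4, 33.2 ± 5.17 CPM (SD, n = 4), and lowest at ZT16, 28.2 ± 3.61 CPM. The DRF mean was lowest at ZT4, 24.1 ± 2.45 CPM, and highest at ZT20, 33.9 ± 3.62 CPM. The NRF cosine itself did not pass, with adjusted p = 0.284 in limma. The difference by clock time was lost without replicate number 3 in all groups, with adjusted p = 0.0706, and held in the other 15 of 16 alternatives run.

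Tlr1 and Tlr5 had fitted peaks at similar clock hours in both regimens. Of these curves only the cosine of Tlr5 under DRF passed in limma, with adjusted p = 0.0392. Adjusted p of the cosine in limma was 0.124 for Tlr5 under NRF, and 0.134 and 0.0941 for Tlr1 under NRF and DRF. Tlr1 was fitted with its peak at 7.55 ± 1.43 h (SE) under NRF and 7.74 ± 1.30 h under DRF, in the light in both, with amplitudes of 0.21 ± 0.09 and 0.24 ± 0.09. Aligned by food the curves differed, with adjusted p = 0.0238 in limma, and by clock time adjusted p was 0.986. At ZT8 Tlr1 was at 2.89, 3.81, 2.80 and 2.85 CPM under NRF and at 3.85, 4.16, 2.54 and 3.35 CPM under DRF, with overlap. Tlr5 was fitted with its peak at 17.0 ± 1.37 h under NRF and 15.6 ± 1.16 h under DRF, in the dark, with amplitudes of 0.18 ± 0.07 and 0.22 ± 0.07. Aligned by food its adjusted p was 0.0132, and by clock time 0.774. At ZT4 Tlr5 was at 5.14, 5.30, 6.00 and 6.16 CPM under NRF and at 5.27, 5.54, 4.54 and 4.35 CPM under DRF, with overlap. Both calls were lost without replicate number 2 and without replicate number 3 in all groups, that of Tlr1 also without the ZT24 libraries and that of Tlr5 also without replicate number 1.

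**Figure D5:**
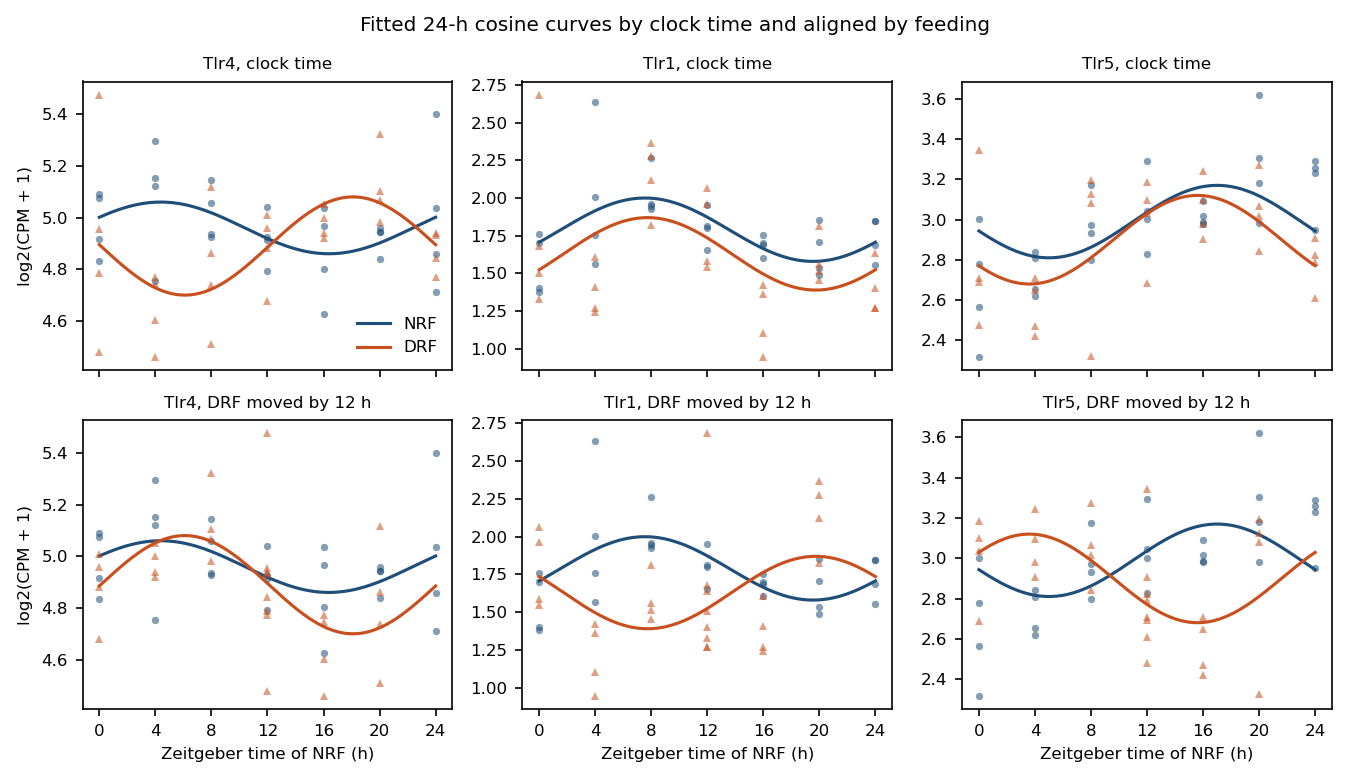
Values of each mouse (points) and fitted 24-h cosine curves (lines) on log2(CPM + 1) for Tlr4, Tlr1 and Tlr5, by clock time (top) and with DRF moved by 12 h (bottom). The Tlr4 curves are opposed by clock time, with peaks at 4.38 h and 18.1 h, and those of Tlr1 and Tlr5 are opposed after the move.

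The remaining genes gave weak curves. Their amplitudes ran from 0.06 to 0.12 under NRF and from 0.02 to 0.16 under DRF. For Tlr8 under DRF the amplitude was 0.02 ± 0.06 and the SE of the peak 9.61 h, so its peak hour has no meaning. Tlr7 came closest to a difference by clock time after Tlr4, with peaks at 13.4 ± 2.39 h and 0.604 ± 2.07 h (SE) and adjusted p = 0.0818. It passed in 0 of 16 alternatives, while Tlr6 passed in 1, without replicate number 2 in all groups, with adjusted p = 0.0399 in limma. Of the 68 genes that work with the receptors, 28 differed in rhythm by clock time and 13 when aligned by food, and 19 were called rhythmic under NRF and 12 under DRF. Over all genes the shares were 36.0%, 14.9%, 26.7% and 15.0%, and among genes with a mean of at least 1 CPM the first and second were 53.4% and 23.0%. The counts of the 68 genes lie near the shares of all genes. The smallest adjusted p by clock time were those of Tab3, Traf3, Irf8, Ap3b1, Ikbkg and Rel, signalling, sorting and transcription factor genes. Tab3 peaked at 7.12 h under NRF and 20.4 h under DRF, with amplitudes of 0.57 and 0.67, and adjusted p was 1.4e-14. Irf8, a factor of myeloid and B cells, peaked at 20.3 h and 6.59 h, with amplitudes of 0.43 and 0.61 and adjusted p = 3.9e-12. Aligned by food, Socs1, an inhibitor of cytokine signalling, had the smallest adjusted p, 5.1e-04, followed by Tab1, Slc15a4, Tbk1, Irak2 and Ly86. Ticam1 had amplitudes of 0.11 and 0.37 and differed by clock time with adjusted p = 2.3e-04, Unc93b1 had 0.24 and 0.07 with adjusted p = 0.00306, and for Cd14 and Ly96 adjusted p was 0.104.

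The genes most like each receptor were sought among the 14303 genes with a mean of at least 1 CPM, by Pearson correlation of log2(CPM + 1) over the 56 libraries. The points share library and tissue makeup, and these values are given as a description. Tlr2 went with Tmem176b (r = 0.79) and Cd14 (0.79). Tlr7 went with Plxnc1 (0.79), Csf1r (0.77) and Igsf6 (0.76), and Tlr8 with Clec4a3 (0.74), Abca9 (0.74) and Tlr7 itself (0.73). Csf1r is the receptor for the growth factor of macrophages, and Clec4a3 is a myeloid lectin. Tlr1 went with Slc25a12 (0.77), Pik3cd (0.76) and Manba (0.76), and Tlr9 with Fam129a (0.74), Pik3cd (0.71) and Wdfy4 (0.70), so that Pik3cd, a phosphoinositide kinase subunit of leukocytes, was among the 3 most alike for both. Tlr4 went with Sppl2a (0.75), Vwa5a (0.75) and Man1a (0.68), Tlr5 with Atf7 (0.63), Synj1 (0.60) and Med13l (0.60), and Tlr6 with Samhd1 (0.74), 1110025M09Rik (0.68) and Nsmaf (0.66). Tlr3 went with A630001G21Rik (0.66), Mtmr11 (0.65) and the helicase gene Ddx60 (0.65), and Myd88 with Ctsh (0.72), H2-T23 (0.71) and Irgm2 (0.71). Without the 2 libraries that stood apart the values were 0.74 for Tlr2 with Tmem176b, 0.81 for Tlr7 with Plxnc1 and 0.53 for Tlr3 with A630001G21Rik. Within a regimen Tlr7 and Csf1r had r = 0.82 under NRF and 0.46 under DRF, a difference that was not tested.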

How the data were processed

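VAT of 56 mice was sequenced by the authors as polyA RNA. Per the labels' processing notes, HISAT2 2.0.5, featureCounts 1.5.0-p3 and the build mm10 were used. The deposited table, named TPM by the authors, is treated here as a score, because each deposited score is a log2(CPM + 1) value divided by exon length and rescaled per library. The plan assumed values that might be linear. Whole reads were recovered from the steps between low values, and 100.0% of 1262086 values tested lay within 0.02 of a whole number. Lengths were accepted on this same condition, so that share was largely set by the method. The annotated length met it for 25014 of 25939 genes, and for 879 a length was sought from the values. Scd1 could not be resolved and was left out of limma. Exon lengths of GENCODE M21 (GRCm38) were used, which fit most genes but not the authors' whole annotation.

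Differences were tested in limma 3.58.1 (R 4.3.3) on log2(CPM + 1) with an intensity trend and Benjamini-Hochberg adjustment over 25938 genes, at an adjusted p of 0.05. A 24-h cosine and sine per regimen gave mean level and rhythm, and a fit of group means gave the time points. Rhythms within a regimen were tested by JTK_CYCLE and Lomb-Scargle on the deposited values (Python 3.11.15; scipy 1.17.1, pandas 2.3.3, numpy 2.4.6). Counting error rests on 31144102 to 41246347 reads per library. Each library is 1 mouse. Tested on simulated data of 25938 genes, limma found 191 of 200 altered means, calling 12 others, and 194 of 200 altered rhythms, calling 11 others, and the rhythm test found 128 of 200 among 3000 genes with 1 other.

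The 10 genes are taken by name, but this family, the pathway list of 69 genes and the marker lists were proposed with earlier results of these data known. All 10 genes are named throughout. From the lists, up to 6 called genes with the smallest adjusted p are named, plus Cd14, Ly96, Unc93b1 and Ticam1. Genes named beyond these, such as the other called markers, Acaa1a and Slc22a14, were chosen after their values were seen. Protein sequences were not used here, and 1 gene among those most like the receptors is not reported here. Alternatives covered the pseudocount, scaling, filter, trend, voom, the deposited values, the replicate block, the ZT24 libraries and left-out libraries.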

Additional observations from a re-analysis of the deposited data

Results flagged for a closer look

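In 140 groups of 4 mice (10 genes in 14 groups), 7 held a mouse whose gap to the nearest other mouse, as a share of the range of the group, exceeded Dixon's 95% critical value, 5.00% of the groups, where chance gives about 1 in 20. Tlr2 was at 19.8 CPM in DRF ZT0 replicate 4, against 5.59 to 6.33 CPM in the other 3 mice. Tlr5 was at 4.01 CPM in DRF ZT8 replicate 1, against 7.46 to 8.16 CPM. These are the libraries that stood apart in the principal components. Tlr7 was at 6.81 CPM in NRF ZT4 replicate 1, against 9.22 to 9.72 CPM. Tlr7 was also at 11.3 CPM in NRF ZT16 replicate 3, against 8.94 to 9.27 CPM, and at 7.43 CPM in DRF ZT16 replicate 3, against 6.29 to 6.43 CPM. Tlr1 was at 3.81 CPM in NRF ZT8 replicate 2, against 2.80 to 2.89 CPM, and Tlr4 was at 27.6 CPM in NRF ZT20 replicate 1, against 29.8 to 30.1 CPM.

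In 3 genes a limma test of the rhythm itself differed between the regimens. Tlr4 differed by clock time with adjusted p = 0.00625, 1 of the 10 genes against 36.0% of all genes. Tlr1 and Tlr5 differed once DRF was moved by 12 h, with adjusted p = 0.0238 and 0.0132, 2 of the 10 genes against 14.9% of all genes.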

How the results depend on the processing

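Tlr2, Tlr6 and Tlr7 passed the test of the mean level under all 16 alternatives run, Tlr8 and Myd88 under 15 and Tlr9 under 12. Tlr8 failed without replicate 3, with adjusted p = 0.104, Myd88 without replicate 1, with 0.0501, and Tlr9 without replicates 2, 3 or 4 and without ZT24. Tlr1 passed only without DRF ZT0 replicate 4. No called difference of the 10 genes changed sign under any alternative. Leaving out a replicate number gave 4 to 5 genes for the mean level, 0 to 2 for the rhythm by clock time, 0 to 2 aligned by food, 0 to 1 rhythmic under NRF and 0 to 0 under DRF, 0 to 0 at ZT0, 0 to 5 at ZT4, 0 to 1 at ZT8, 0 to 2 at ZT12, 0 to 1 at ZT16, 0 to 1 at ZT20 and 0 to 0 at ZT24. The cause was not tested, beyond fewer mice per group.

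Scaling by the sum of recovered reads called 7 genes at ZT4, 0 at ZT8, 1 at ZT12 and 1 at ZT24. Genes with a mean of at least 1 CPM alone gave 2 at ZT8, 2 at ZT20 and 1 rhythmic under DRF. limma without the trend gave 2 at ZT8, and the deposited values gave 4 at ZT16 and 0 at ZT20. Without DRF ZT8 replicate 1, 0 were called at ZT8, and without DRF ZT0 replicate 4, 4 at ZT16. Without both, 0 were called at ZT8, 4 at ZT16, 1 at ZT24 and 2 as rhythmic under DRF, and 20 pathway genes were lower. Without ZT24, 1 gene differed aligned by food. JTK_CYCLE alone gave 1 under each regimen and the limma cosine 2 under DRF. By CPM without length, 5 genes kept their rank under NRF and 2 under DRF. Over all genes, calls of the mean level ran from 3814 to 4601 with a replicate number left out, against 5632.

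The replicate numbers were not shown to pair the mice. Over 364 same-numbered pairs the mean correlation was 0.0412 and 137 were over 0.1, and over pairs of different numbers the mean was -0.0121. These values cannot decide whether mice of the same number shared a batch. With the replicate block, 6 genes were called for the mean level, 1 by clock time, 2 aligned by food and 5 at ZT4. Depth limits Tlr1, Tlr6 and Tlr9, which rest on as few as 38 reads.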
